A study of Rattus norvegicus with 46 samples.

Results

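Levels of 5 complement genes, C1qa, C1qb, C1qc, C3 and Serping1, are described here in skeletal muscle of immobilised, mechanically ventilated rats. The 5 genes were listed by name, and each is 1 of 9289 genes measured above a low-signal filter. The platform annotation gives each of them 1 probe set. The proximal gastrocnemius of both legs of 23 female Sprague-Dawley rats was sampled, and its RNA was hybridised to 46 single-colour Affymetrix arrays, 1 array a leg. Every rat was anaesthetised with isoflurane, paralysed with α-cobrotoxin and ventilated, and no untreated rat was measured. This toxin blocks the nicotinic receptor of the neuromuscular junction, and was given at 100 µg on the first day and 250 µg a day afterwards. A lever flexed and extended the ankle of the loaded leg passively, with 13.3 cycles in each minute. It ran for 12 h a day, or for 6 h in rats of the shortest duration, while the unloaded leg was not moved. The loaded and unloaded legs fall into 3 windows of time on the ventilator, 6 h to 4 d (13 rats), 5 to 8 d (4 rats) and 9 to 14 d (6 rats), and durations differ among the rats of 1 window. Rats are named here by the number of their unloaded leg, and the pairing of legs is inferred from the numbering.

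Complement is a set of blood and tissue proteins that tags particles, cells and debris for removal and calls in phagocytes. C1q, built of the products of C1qa, C1qb and C1qc, is the recognition molecule of the classical pathway, and tissue macrophages are a major source of it. It activates the proteases C1r and C1s, which lead to cleavage of C3, the protein on which the classical, lectin and alternative pathways converge. Serping1 encodes C1 inhibitor, a serpin that blocks C1r, C1s and the proteases of the lectin pathway. In mouse muscle, complement activation is known to take part in the recruitment of macrophages after injury.

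The promoters of C1qa, C1qb and C3 are shown, the 3 of the 5 genes with a promoter in the reference set used. Each run, from RefSeq (build GRCr8), holds 250 bases before and 50 bases after the gene's start, on the minus strand and 5′ to 3′. Capitals mark letters of 4 motifs searched on both strands: GGAAGT (the core bound by ETS factors such as PU.1), GAAANNGAA (a short form of the interferon response element), TTNNGNAA (C/EBP) and TTCNNNGAA (STAT).
C1qa, chr5:154419884-154420183: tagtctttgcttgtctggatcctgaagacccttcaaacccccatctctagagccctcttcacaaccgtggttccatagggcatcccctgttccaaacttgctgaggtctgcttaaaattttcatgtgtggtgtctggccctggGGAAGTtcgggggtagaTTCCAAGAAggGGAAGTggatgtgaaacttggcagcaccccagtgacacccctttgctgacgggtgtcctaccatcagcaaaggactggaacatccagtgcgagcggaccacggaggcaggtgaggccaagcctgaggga
C1qb, chr5:154407778-154408077: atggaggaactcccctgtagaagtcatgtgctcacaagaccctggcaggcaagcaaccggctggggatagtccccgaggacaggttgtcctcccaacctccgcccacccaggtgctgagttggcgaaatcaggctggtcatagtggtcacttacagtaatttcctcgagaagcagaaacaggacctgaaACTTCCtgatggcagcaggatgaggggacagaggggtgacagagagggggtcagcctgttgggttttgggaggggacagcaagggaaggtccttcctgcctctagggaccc
C3, chr9:2201290-2201589: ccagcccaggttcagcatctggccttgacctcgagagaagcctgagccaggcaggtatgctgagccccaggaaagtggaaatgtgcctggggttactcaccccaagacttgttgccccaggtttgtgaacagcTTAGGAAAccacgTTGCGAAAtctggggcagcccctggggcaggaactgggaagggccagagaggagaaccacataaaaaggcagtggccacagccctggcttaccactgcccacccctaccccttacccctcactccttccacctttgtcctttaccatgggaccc
The C1qa window held GGAAGT in 2 places and TTCNNNGAA in 1, and the C1qb window held GGAAGT in 1 place on the opposite strand. The C3 window held TTNNGNAA in 2 places and none of the other 3 motifs. No motif matches overlapped each other. Of all 33469 promoters in the table, 22.6% held GGAAGT, 9.71% GAAANNGAA, 41.3% TTNNGNAA and 8.87% TTCNNNGAA. C1qb, C1qc and C1qa are 3 consecutive genes of rat chromosome 5 in that order, and C1qc and Serping1 are named here without a promoter.

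All values are log2 expression values made by the authors with RMA, robust multi-array averaging, which removes background, equalises the distributions of the arrays and sums up the probes of a set. Array medians ran from 6.07 to 6.20. Genes of the muscle fibre such as Acta1 and Ckm averaged 14.17 and 13.85 over the 46 arrays, and of 5 liver genes measured (Alb, Serpina1, Ttr, Fgb and Ahsg) each was above its array's median on 0 arrays. C1qa, C1qb, C1qc and Serping1 were above the array median on all 46 arrays. C3 was above it on 14 arrays, of which 10 came from the 9 to 14 d window. At 6 h to 4 d it was above the median in 0 of 13 loaded and 1 of 13 unloaded legs, where its level may be little more than background. Its differences from that window are given as log2 differences of the deposited values, and their size is uncertain.

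**Figure D1:**
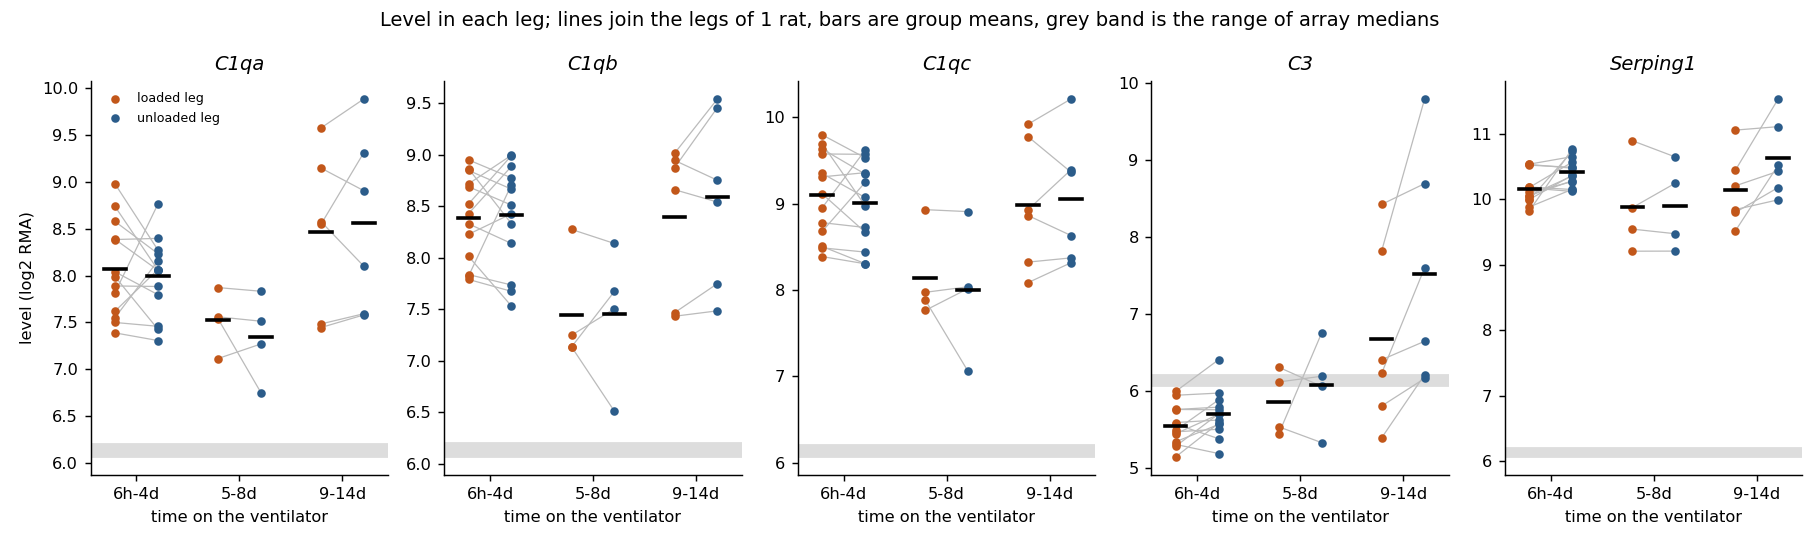
Level of each gene (log2 RMA, y axis) in loaded legs (orange) and unloaded legs (blue) of 3 windows of time on the ventilator (x axis), with lines joining the legs of 1 rat, bars for group means and a grey band from 6.07 to 6.20 for the array medians. The C1q genes and Serping1 lie above the band on every array, while C3 lies under or near it at 6 h to 4 d and reaches 9.79 in an unloaded leg at 9 to 14 d.

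The genes of C1q had lower levels at 5 to 8 d than at 6 h to 4 d in both legs, by about 1 log2 unit for C1qb and C1qc. Within the one date code that holds both windows they did not pass, with smaller differences in loaded legs and no lower level in unloaded legs. C1qb and C1qc fell in loaded and in unloaded legs, and C1qa, with smaller differences of the same sign, did not pass the test. Whole muscle was measured, so fewer cells of a type and less RNA per cell cannot be told apart. At 5 to 8 d the loaded legs of rats 41, 43, 53 and 55 had C1qc levels of 8.93, 7.76, 7.97 and 7.89, and their unloaded legs 8.91, 8.02, 8.04 and 7.06. At 6 h to 4 d the lowest, median and highest C1qc levels were 8.39, 9.11 and 9.80 in loaded legs and 8.30, 9.07 and 9.62 in unloaded legs. Rat 41 lay inside the earlier range in both legs, and the other 3 rats lay below it in both.

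The difference of C1qc between 5 to 8 d and 6 h to 4 d was -0.96 ± 0.31 (log2, SE) in loaded legs (limma adjusted p = 0.0168) and -1.01 ± 0.32 in unloaded legs (limma adjusted p = 0.0174). C1qb gave -0.94 ± 0.29 in loaded legs (limma adjusted p = 0.013) and -0.96 ± 0.34 in unloaded legs (limma adjusted p = 0.031). Its levels in rats 41, 43, 53 and 55 were 8.27, 7.13, 7.25 and 7.14 in loaded legs and 8.14, 7.67, 7.50 and 6.51 in unloaded legs at 5 to 8 d. The 6 h to 4 d levels of C1qb had a lowest, median and highest value of 7.79, 8.43 and 8.95 in loaded legs and 7.53, 8.51 and 9.00 in unloaded legs. The loaded legs of all rats but 41 lay below that range, while in unloaded legs rats 41 and 43 lay inside it. C1qa gave -0.54 in loaded legs (limma adjusted p = 0.184) and -0.65 in unloaded legs (limma adjusted p = 0.119). Of all genes tested, 12% were called lower and 26.9% higher in loaded legs at 5 to 8 d, and 12.3% lower and 23.6% higher in unloaded legs.

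The date codes in the labels, whose meaning is not given, divide these windows unevenly. Date code 3 holds 4 rats of 6 h to 4 d and 2 of 5 to 8 d, and code 5 holds the other 2 rats of 5 to 8 d and no rat of 6 h to 4 d. Within code 3, C1qb averaged 7.70 at 5 to 8 d against 7.97 at 6 h to 4 d in loaded legs, and 7.91 against 7.84 in unloaded legs. C1qc averaged 8.35 against 8.62 in loaded legs and 8.46 against 8.43 in unloaded legs. The code 3 rats of 6 h to 4 d were themselves low: the 6 rats of code 4 in that window averaged 8.69 for C1qb in loaded legs and 8.55 in unloaded legs. With date code as a block, C1qb differed by -0.57 in loaded legs (limma adjusted p = 0.373) and -0.37 in unloaded legs (limma adjusted p = 0.668). The corresponding C1qc values were -0.36 (limma adjusted p = 0.638) and -0.21 (limma adjusted p = 0.796). The calls also rested on single rats. Without rat 55, C1qb gave -0.84 in loaded legs (limma adjusted p = 0.0556) and -0.64 in unloaded legs (limma adjusted p = 0.208), and C1qc gave -0.88 (limma adjusted p = 0.0606) and -0.69 (limma adjusted p = 0.142). C1qb also lost its call without rat 43 in loaded legs and rat 53 in unloaded legs, and C1qc without rat 43 or 53 in loaded legs.

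At 9 to 14 d no gene of C1q passed the test against 6 h to 4 d, and the spread between rats was wide. C1qa, the A chain, had a lowest, median and highest level of 7.45, 8.56 and 9.57 in loaded legs and 7.58, 8.50 and 9.88 in unloaded legs at 9 to 14 d. At 6 h to 4 d these were 7.39, 7.99 and 8.98 in loaded legs and 7.31, 8.06 and 8.76 in unloaded legs. Rats 49 and 51 had the highest C1qa in both legs among those of 9 to 14 d, apart from the unloaded leg of rat 59 at 9.31, and rats 45 and 47 had the lowest. The difference was 0.40 in loaded legs (95% interval -0.17 to 0.96, limma adjusted p = 0.252) and 0.57 in unloaded legs (-0.00 to 1.14, limma adjusted p = 0.0945). C1qa passed in unloaded legs without rat 45 (0.77, limma adjusted p = 0.0297) or rat 47 (0.77, limma adjusted p = 0.0294). With date code as a block C1qa passed in unloaded legs (1.08, limma adjusted p = 0.0381) and not in loaded legs (0.70, limma adjusted p = 0.208). C1qb differed by 0.01 in loaded and 0.17 in unloaded legs, and C1qc by -0.11 in loaded and 0.04 in unloaded legs. The lowest group means of all 3 genes were those of 5 to 8 d: C1qb averaged 7.45 ± 0.55 in loaded and 7.46 ± 0.69 in unloaded legs there (SD, n = 4 each). It averaged 8.39 ± 0.42 in loaded and 8.41 ± 0.50 in unloaded legs at 6 h to 4 d (SD, n = 13 each), and 8.40 ± 0.75 in loaded and 8.59 ± 0.85 in unloaded legs at 9 to 14 d (SD, n = 6 each), which lie within 1 SD of each other. Against 5 to 8 d, 0 of the 5 genes passed in either leg by limma, where 0.226% of all genes did in each leg. The C1qa difference there was 0.94 in loaded legs (limma adjusted p = 0.221) and 1.22 in unloaded legs (limma adjusted p = 0.101), and 1.41 in unloaded legs without rat 45 (limma adjusted p = 0.0401). With array quality weights all 5 genes passed in unloaded legs, with C1qa at 0.86 (limma adjusted p = 0.0426), but 23.8% of all genes were called there under these weights.

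Loading left no detected difference in the genes of C1q. Over the 23 rats the loaded minus unloaded difference was 0.05 for C1qa (95% interval -0.14 to 0.24, limma adjusted p = 0.824). For C1qb it was -0.07 (-0.23 to 0.10, limma adjusted p = 0.704) and 0.05 for C1qc (-0.10 to 0.21, limma adjusted p = 0.744). Single rats went either way: C1qa was lower in the loaded leg of 9 rats and higher in 14, with differences between -0.94 and 0.79. Each of the 3 genes was lower at 9 to 14 d in the loaded leg of 4 of 6 rats, and the mean differences were -0.10 for C1qa, -0.19 for C1qb and -0.07 for C1qc. The intervals leave room for differences in C1qb of -0.51 to 0.13 in that window.

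The 3 genes varied together. Over the 46 arrays Pearson's r was 0.87 between C1qa and C1qb, 0.88 between C1qa and C1qc and 0.93 between C1qb and C1qc. For the leg differences of the 23 rats r was 0.88, 0.91 and 0.86 in the same pairs, so the rats in which 1 chain was lower in the loaded leg tended to have the others lower too. These arrays share rats and windows, and the values are descriptions.

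C3 had higher levels at 9 to 14 d than at 6 h to 4 d in both legs, and at 9 to 14 d its level was lower in the loaded leg than in the unloaded leg of every one of 6 rats. The loaded legs of rats 45, 47, 49, 51, 57 and 59 had C3 levels of 5.81, 5.39, 7.82, 8.42, 6.41 and 6.23, and their unloaded legs 6.16, 6.21, 9.79, 8.69, 6.64 and 7.60. Rats 49 and 51 were the highest in both legs, and rats 45 and 47 the lowest. The 6 h to 4 d levels had a lowest, median and highest value of 5.14, 5.49 and 5.99 in loaded legs and 5.19, 5.70 and 6.41 in unloaded legs. In both legs rats 45 and 47 overlapped the 6 h to 4 d range and the other 4 rats lay above it. The rise over 6 h to 4 d was 1.13 ± 0.30 (log2, SE) in loaded legs (limma adjusted p = 0.00375) and 1.82 ± 0.37 in unloaded legs (limma adjusted p = 0.000398), sizes that rest on 6 h to 4 d levels near background.

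C3 was the 1 gene of the 5 called higher at 9 to 14 d against 6 h to 4 d in each leg, where 29% of all genes were called higher and 15.2% lower in loaded legs, and 28.7% higher and 16.9% lower in unloaded legs. The call held in all 23 repeats that left out 1 rat, with differences of 0.78 to 1.39 in loaded and 1.36 to 2.09 in unloaded legs. With no filter on low signal it held too (limma adjusted p = 0.00484 in loaded and 0.000523 in unloaded legs). Within date code 3, with 4 rats in each window, the difference of C3 was 1.35 in loaded legs (limma adjusted p = 0.207) and 2.12 in unloaded legs (limma adjusted p = 0.0956), and with date code as a block 1.28 (limma adjusted p = 0.0479) and 2.13 (limma adjusted p = 0.00802). At 5 to 8 d the loaded legs of rats 41, 43, 53 and 55 had 6.31, 5.44, 6.12 and 5.54, and the unloaded legs 6.06, 6.75, 6.19 and 5.33, overlapping both other windows. Against 6 h to 4 d, C3 at 5 to 8 d differed by 0.30 in loaded legs (limma adjusted p = 0.512) and 0.39 in unloaded legs (limma adjusted p = 0.504). The group means of C3 were 5.55 ± 0.26 in loaded and 5.70 ± 0.30 in unloaded legs at 6 h to 4 d (SD, n = 13 each). They were 5.85 ± 0.43 in loaded and 6.08 ± 0.59 in unloaded legs at 5 to 8 d (SD, n = 4 each), and 6.68 ± 1.19 in loaded and 7.52 ± 1.47 in unloaded legs at 9 to 14 d (SD, n = 6 each). In this order no neighbouring means lie further apart than the larger of their SDs.

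**Figure D2:**
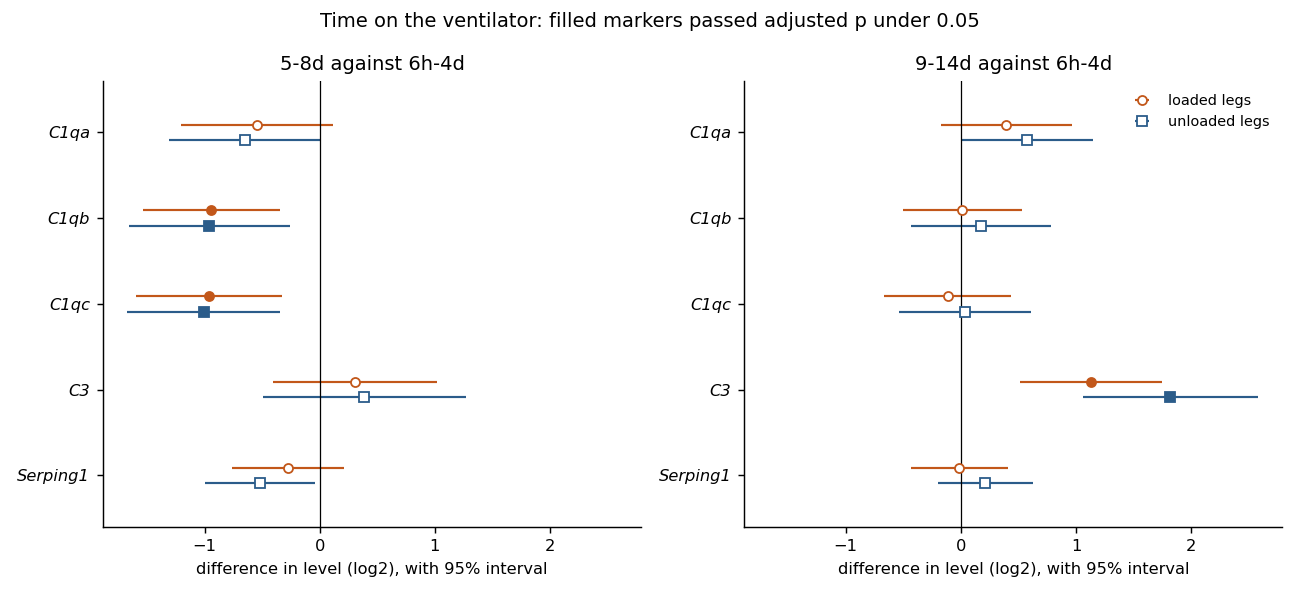
Difference in log2 level from 6 h to 4 d (x axis, with 95% intervals) of each gene at 5 to 8 d (left panel) and at 9 to 14 d (right panel), in loaded legs (circles) and unloaded legs (squares), with markers filled where the limma adjusted p was under 0.05. C1qb and C1qc lie near -1 at 5 to 8 d, and C3 lies at 1.13 and 1.82 at 9 to 14 d.

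For loading at 9 to 14 d, C3 gave -0.84 ± 0.18 (log2, SE, limma adjusted p = 0.047), with rat differences between -1.97 and -0.24. The largest came from rats 49 and 59. The call was narrow: it held without rat 41, 43, 47 or 55 and was lost without any other single rat, to -0.61 without rat 49 (limma adjusted p = 0.331) and -0.73 without rat 59 (limma adjusted p = 0.107). In that window 0.108% of all genes were called lower and 0.161% higher in the loaded leg. With no filter on low signal C3 lost the call for loading at 9 to 14 d (limma adjusted p = 0.0524) and over all rats (limma adjusted p = 0.0612). With rat as a random block it lost both too (limma adjusted p = 0.11 and 0.131). The 9 to 14 d difference averaged -0.85 in the 4 rats of date code 3 and -0.80 in the 2 rats of code 5.

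Over all 23 rats the loaded minus unloaded difference of C3 was -0.34 ± 0.09 (limma adjusted p = 0.0459), and it was below 0 in 18 of 23 rats. C3 was lower in the loaded leg of 10 of 13 rats at 6 h to 4 d, with a mean difference of -0.15 (limma adjusted p = 0.69). The median difference there was -0.03, and C3 levels in that window were near background. At 5 to 8 d C3 was lower in 2 of 4 rats (mean difference -0.23, limma adjusted p = 0.945). The mean difference was largest at 9 to 14 d, at -0.84. The difference of the loading effect of C3 between 9 to 14 d and 6 h to 4 d was -0.69 ± 0.22 and did not pass (limma adjusted p = 0.465). By limma 0% of all genes passed that test of the difference, 717 of them at an unadjusted p under 0.05, and 0% passed for 5 to 8 d minus 6 h to 4 d, with 557 genes at an unadjusted p under 0.05. The all-window call of C3 held in 6 of 23 repeats that left out 1 rat, with adjusted p between 0.0319 and 0.0942 by limma.

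Serping1, the gene of C1 inhibitor, had lower levels in the loaded than in the unloaded leg over the 23 rats. The difference was -0.27 ± 0.07 (log2, SE, limma adjusted p = 0.0347), which is 1.21-fold lower, and it was below 0 in 17 of 23 rats. Of the 5 genes, C3 and Serping1 were thus the 2 called lower in loaded legs, where 1.82% of all genes were called lower and 1.08% higher. Without rat 49 the Serping1 difference was -0.24 (limma adjusted p = 0.0653) and without rat 59 it was -0.24 (limma adjusted p = 0.0581). It passed in the other 21 repeats that left out 1 rat.

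At 9 to 14 d the loaded legs of rats 45, 47, 49, 51, 57 and 59 had Serping1 levels of 10.20, 9.80, 10.44, 11.05, 9.84 and 9.51, and the unloaded legs 10.42, 10.18, 11.53, 11.11, 9.99 and 10.52. Each loaded leg was the lower of its pair, by most in rats 49 and 59, while the groups overlapped. The difference of Serping1 in this window was -0.48 ± 0.13 (limma adjusted p = 0.0983). At 6 h to 4 d the lowest, median and highest levels were 9.82, 10.10 and 10.53 in loaded legs and 10.12, 10.36 and 10.77 in unloaded legs. There it was lower in the loaded leg of 9 of 13 rats, with a mean difference of -0.26 (limma adjusted p = 0.267), and the largest differences came from rats 13 (9.99 loaded, 10.73 unloaded) and 15 (9.82 loaded, 10.77 unloaded). At 5 to 8 d the difference was -0.01 (95% interval -0.35 to 0.32, limma adjusted p = 0.998). For loading, 0% of all genes passed by limma in the 6 h to 4 d window and 0% in the 5 to 8 d window, with 1075 and 644 genes at an unadjusted p under 0.05.

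**Figure D3:**
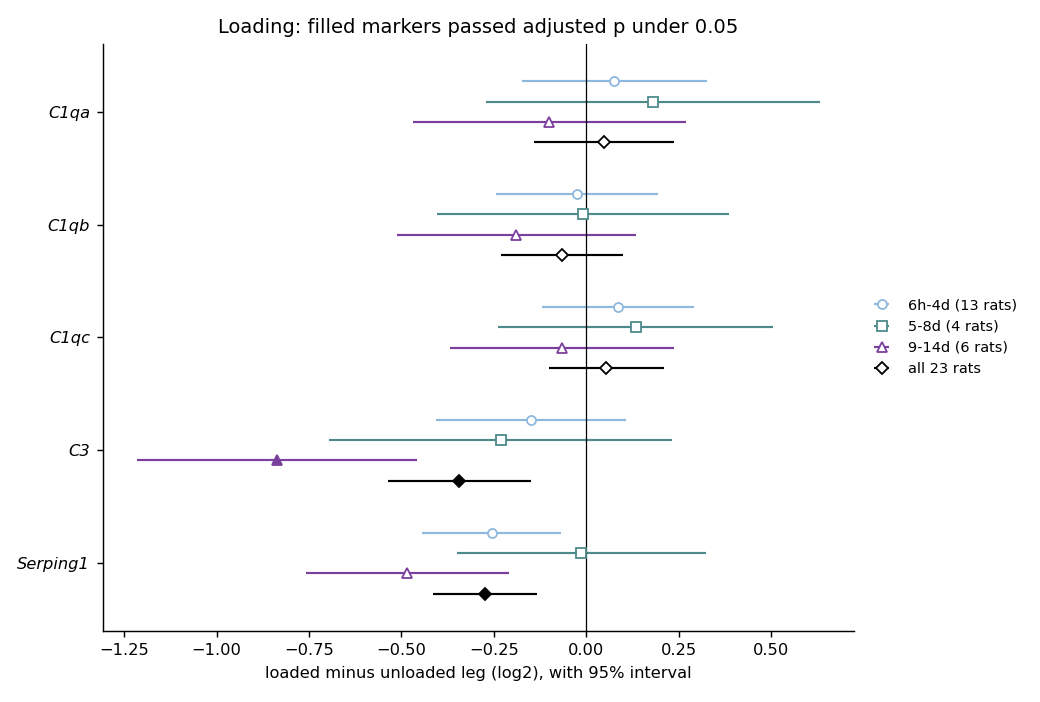
Loaded minus unloaded difference in log2 level (x axis, with 95% intervals) of each gene in the 3 windows and over all 23 rats, with markers filled where the limma adjusted p was under 0.05. The intervals of the C1q genes span 0 in each window, and C3 at 9 to 14 d lies furthest to the left at -0.84.

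Across windows Serping1 did not pass the test in either leg. It averaged 10.15 ± 0.24 in loaded and 10.41 ± 0.22 in unloaded legs at 6 h to 4 d (SD, n = 13 each). The means were 9.88 ± 0.73 in loaded and 9.89 ± 0.67 in unloaded legs at 5 to 8 d (SD, n = 4 each), and 10.14 ± 0.55 in loaded and 10.62 ± 0.58 in unloaded legs at 9 to 14 d (SD, n = 6 each), so the windows overlapped. Its 5 to 8 d levels in rats 41, 43, 53 and 55 were 10.89, 9.87, 9.54 and 9.21 in loaded legs and 10.64, 10.24, 9.47 and 9.21 in unloaded legs. Rats 53 and 55, both of date code 5, were below the 6 h to 4 d range in both legs, and rats 41 and 43, of code 3, were not. Against 6 h to 4 d the difference of Serping1 was -0.28 in loaded legs (limma adjusted p = 0.376) and -0.52 in unloaded legs (limma adjusted p = 0.0811). Without rat 41 it passed in both, at -0.62 in loaded legs (limma adjusted p = 0.0326) and -0.77 in unloaded legs (limma adjusted p = 0.0164), and without rat 49 it passed in unloaded legs (-0.52, limma adjusted p = 0.0483). Within date code 3 the sign turned, to 0.35 in loaded legs and 0.19 in unloaded legs. At 9 to 14 d against 6 h to 4 d Serping1 differed by -0.01 in loaded legs (limma adjusted p = 0.964) and 0.21 in unloaded legs (limma adjusted p = 0.389). With date code as a block it passed in unloaded legs (0.63, limma adjusted p = 0.0401) and not in loaded legs (0.39, limma adjusted p = 0.215).

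Of 59 other complement genes listed, 26 were tested. The rest were below the filter (14 genes), shared a probe set with another gene (C2, C4a, C4b and Cfb) or had no probe set under that symbol (15 genes, C5ar1 among them). Cfi, which degrades active C3, was one of those below the filter.

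At 9 to 14 d against 6 h to 4 d, 9 of the 26 rose, 3 fell and 14 did not pass in loaded legs, and 12 rose, 4 fell and 10 did not pass in unloaded legs. Their median difference was 0.28 in loaded and 0.41 in unloaded legs, beside medians of 0.08 and 0.07 over all genes. Of all genes, 29% rose and 15.2% fell in loaded legs, and 28.7% rose and 16.9% fell in unloaded legs. When date code was a block, 3 of the 26 rose and 1 fell in loaded legs, and 9 rose and 0 fell in unloaded legs, beside 12.9% and 7.14% of all genes in loaded legs and 15.3% and 8.15% in unloaded legs. C3ar1 and Cr1l were the genes of the 26 that rose in both legs under that block. C1rl, Masp2, Csmd1 and Vsig4 passed the low-signal filter through 1 window each, and without them 9 rose and 2 fell in loaded legs, and 11 rose and 3 fell in unloaded legs. Among the receptors C3ar1, which binds the C3a fragment of C3, rose by 1.25 in loaded legs (limma adjusted p = 0.00221) and 1.33 in unloaded legs (limma adjusted p = 0.00976). Itgam and Itgb2, the chains of the receptor CR3 for C3 fragments, rose by 1.04 and 0.90 in unloaded legs (limma adjusted p = 0.004 and 0.00904). In loaded legs Itgb2 rose by 0.74 (limma adjusted p = 0.0466), and Itgam differed by 0.54 (limma adjusted p = 0.107). Itgam was above the array median in 1 of 13 loaded and 1 of 13 unloaded legs at 6 h to 4 d, so the size of its differences is uncertain. Cd93, Calr and C1qbp, whose products have been described as binding C1q, rose in both legs, Cd93 by 0.90 in loaded and 1.07 in unloaded legs. With date code as a block Cd93, Calr and Itgb2 lost their calls in both legs, and C1qbp lost its call in loaded legs.

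Genes upstream of C3 went different ways. Masp1, a protease of the lectin pathway, fell by 1.08 in loaded and 0.88 in unloaded legs at 9 to 14 d. With date code as a block Masp1 passed in loaded legs (-0.79, limma adjusted p = 0.033) and not in unloaded legs (-0.36, limma adjusted p = 0.461). Masp2, another such protease, was called lower in both legs, but it was above the array median on 6 arrays, all of 6 h to 4 d, so no size is read from it. Fcnb, a ficolin that recognises sugars, rose by 0.94 in loaded and 0.99 in unloaded legs, and Colec12, a scavenger receptor with a collectin domain, rose by 0.29 and 0.44. C1s rose in unloaded legs by 0.59 (limma adjusted p = 0.0126) and differed by 0.35 in loaded legs (limma adjusted p = 0.0899), and C1r differed by -0.13 in loaded legs (limma adjusted p = 0.482) and 0.11 in unloaded legs (limma adjusted p = 0.645). In the alternative pathway Cfp, the gene of properdin, which stabilises the C3 convertase, rose by 0.66 in loaded and 0.89 in unloaded legs. Cfd, the protease factor D, differed by 0.27 in loaded legs (limma adjusted p = 0.401) and 0.36 in unloaded legs (limma adjusted p = 0.227). Of the regulators, Cr1l rose in both legs, Vtn (vitronectin) fell by 0.50 in loaded and 0.53 in unloaded legs, and Cd55, which breaks up convertases on the cell's own surface, fell by 0.66 in unloaded legs. Csmd1 was called higher in unloaded legs, but it was above the array median on 0 arrays of 6 h to 4 d and on 6 arrays in all, so no size is read from it. Under the date block Masp2 and Vtn lost their calls in both legs, Cd55 and Fcnb in unloaded legs, and Cfp and Colec12 in loaded legs. Calls were kept by Cr1l in both legs, by Fcnb in loaded legs, and by C1s, Cfp, Colec12 and Csmd1 in unloaded legs.

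At 5 to 8 d, 3 of the 26 rose and 5 fell in loaded legs, and 4 rose and 5 fell in unloaded legs. The medians were -0.17 in each leg, beside 0.06 in loaded and 0.05 in unloaded legs over all genes. Of all genes, 26.9% rose and 12% fell in loaded legs, and 23.6% rose and 12.3% fell in unloaded legs. With date code as a block, 1 of the 26 rose in loaded legs (C1qbp) and 2 rose in unloaded legs (C1qbp and Cr1l), and 0 fell in either leg by limma, so each fall given here lost its call. Under that block 6% of all genes rose and 3.15% fell in loaded legs, and 5.39% rose and 2.76% fell in unloaded legs. C1r, the protease carried by C1q, fell in both legs, by 0.64 in loaded legs (limma adjusted p = 0.00571) and by 0.72 in unloaded legs (limma adjusted p = 0.00933). Its partner C1s differed by -0.03 in loaded legs (limma adjusted p = 0.91) and -0.17 in unloaded legs (limma adjusted p = 0.561). Masp1 and C8g also fell in both legs, Clu and Cd55 fell in loaded legs, and C6 and Vtn fell in unloaded legs. Cd93, C1qbp and Calr rose in both legs and Cr1l rose in unloaded legs. At that time C3ar1 differed by 0.14 in loaded legs (limma adjusted p = 0.788) and -0.15 in unloaded legs (limma adjusted p = 0.834), and Itgam by -0.10 in loaded legs (limma adjusted p = 0.821) and -0.06 in unloaded legs (limma adjusted p = 0.901). Cfd differed by -0.59 in loaded legs (limma adjusted p = 0.114) and -0.21 in unloaded legs (limma adjusted p = 0.582).

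**Figure D4:**
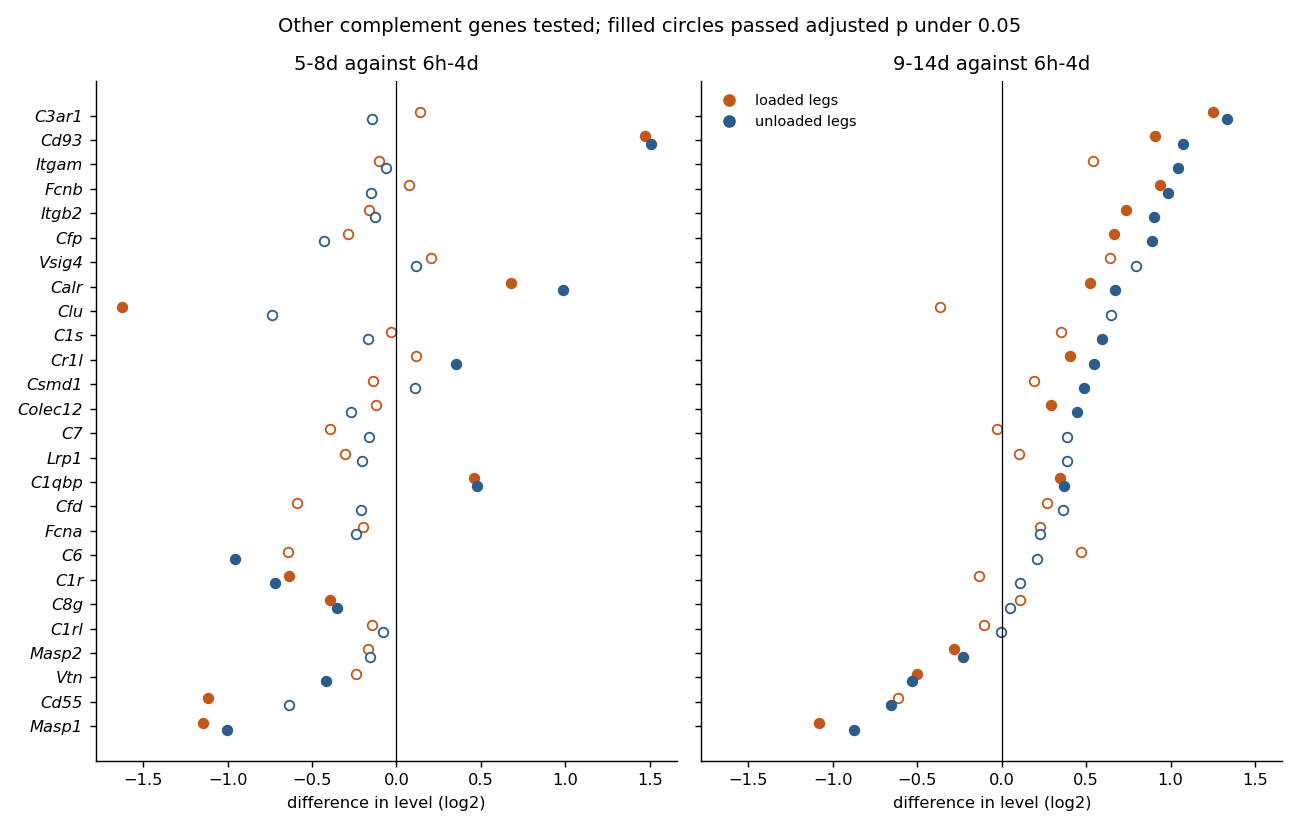
Difference in log2 level from 6 h to 4 d (x axis) of the 26 other complement genes tested, at 5 to 8 d (left) and 9 to 14 d (right), in loaded legs (orange) and unloaded legs (blue), with circles filled where the limma adjusted p was under 0.05. C3ar1 and Cd93 lie at the high end at 9 to 14 d and Masp1 at the low end.

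Of these 26 genes, 1 was called for loading over all rats, where 1.82% of all genes were called lower and 1.08% higher. Clu, the gene of clusterin, which inhibits the terminal complex, gave -0.49 ± 0.13 (log2, SE, limma adjusted p = 0.0396). Clu passed for loading in no single window and in neither test of the difference between windows. In each of these tests 0.269% of all genes or fewer passed. Median Clu levels at 6 h to 4 d were 10.79 in loaded and 10.85 in unloaded legs. At 5 to 8 d they were 8.90 and 9.34, and the highest unloaded leg had 12.27. At 9 to 14 d they were 10.05 and 11.23. Repeats that left out 1 rat are not given for Clu. Over all rats C1s, a target of C1 inhibitor, gave -0.23 (limma adjusted p = 0.115) and C1r, the other, -0.14 (limma adjusted p = 0.251). The median of the 26 was -0.10, beside -0.01 over all genes. In the 9 to 14 d window 0 of the 26 passed by limma, and the median was -0.19, beside -0.01 over all genes. In that window C1s gave -0.43 (limma adjusted p = 0.247), C1r gave -0.34 (limma adjusted p = 0.284) and Itgam gave -0.53 (limma adjusted p = 0.249). C3ar1 gave -0.19 (limma adjusted p = 0.786) and Cfd gave -0.25 (limma adjusted p = 0.76).

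Macrophage markers were also compared between windows, and calls were most frequent in unloaded legs at 9 to 14 d. Of 16 listed, 15 were tested, and 13 of the 16 were above the array median on at least 44 arrays, Ms4a7 on 2, Adgre1 on 20 and Aif1 on 25. Their mean ranged from 7.75 to 8.94 in loaded and 7.75 to 8.79 in unloaded legs at 6 h to 4 d. At 5 to 8 d the ranges were 7.52 to 8.47 in loaded and 7.25 to 8.32 in unloaded legs, and at 9 to 14 d 7.78 to 9.90 in loaded and 8.19 to 10.34 in unloaded legs. At 9 to 14 d against 6 h to 4 d, 4 of the 15 rose in loaded legs (median 0.54) and 10 rose in unloaded legs (median 0.83), where 29% and 28.7% of all genes rose. At 5 to 8 d, 3 fell in loaded legs (median -0.52) and 2 in unloaded legs (median -0.54), where 12% and 12.3% of all genes fell. The date block left 0 of the 15 called lower at 5 to 8 d in either leg by limma. At 9 to 14 d 2 rose in loaded and 11 in unloaded legs under it, where 12.9% and 15.3% of all genes rose. Over the 46 arrays r with this mean was 0.94 for C1qa, 0.86 for C1qb, 0.83 for C1qc, 0.76 for C3 and 0.70 for Serping1. The part of these cells in the members' differences was not tested.

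For loading, 0 of the 15 macrophage markers passed over all rats or at 9 to 14 d by limma, with medians of -0.11 and -0.28. Of all genes, 2.9% passed over all rats and 0.269% at 9 to 14 d, with a median of -0.01 in each. The loaded legs of rats 45, 47, 49, 51, 57 and 59 at 9 to 14 d had macrophage means of 7.78, 8.06, 9.90, 9.77, 8.93 and 8.86, and the unloaded legs 8.19, 8.47, 10.34, 9.24, 8.68 and 9.91. The mean was lower in the loaded leg of rats 45, 47, 49 and 59 and higher in that of rats 51 and 57. C3 and Serping1 were lower in the loaded leg of each of these rats. In rats 51 and 57 the differences were -0.27 and -0.24 for C3, and -0.05 and -0.15 for Serping1. Other marker lists differ: of 10 fibroblast markers, 6 fell in loaded and 9 in unloaded legs at 5 to 8 d, when C1qb and C1qc were low, and 12% and 12.3% of all genes fell. Under the date block 1 of the 10 fell in each leg, where 3.15% of all genes fell in loaded and 2.76% in unloaded legs. Of 8 neutrophil markers 3 were tested, of which 1 rose in each leg at 9 to 14 d. Of all genes, 29% rose there in loaded and 28.7% in unloaded legs. The median of the 3 markers was -0.02 in loaded and -0.14 in unloaded legs. S100a8, Elane, Camp and Cxcr2 were above the array median on 0 arrays. Of 6 T cell markers 1 was tested, Cd4, which was above the median on 46 arrays. It rose at 9 to 14 d by 0.61 in loaded and 0.74 in unloaded legs. Cd3d, Cd3e and Cd3g were above the median on 0 arrays, so Cd4 alone is not read as a measure of T cells. The part of these cells was not tested.

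**Figure D5:**
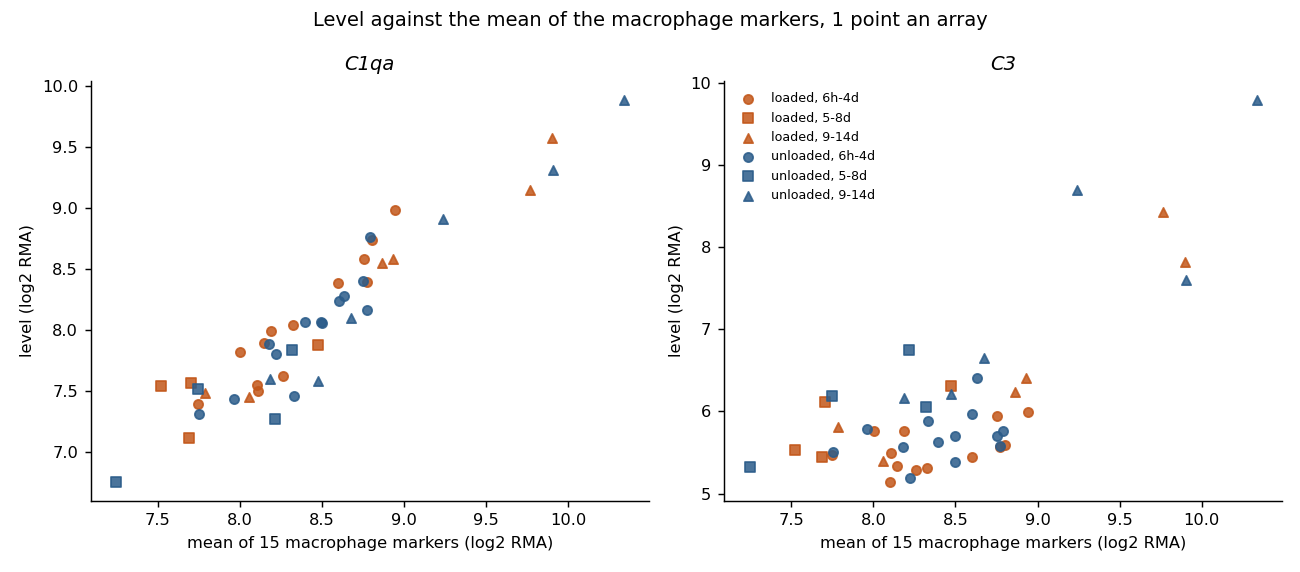
Level of C1qa (left) and C3 (right, both log2 RMA) against the mean of 15 macrophage markers (log2 RMA, x axis) on each of the 46 arrays, with colour for the leg and marker shape for the window. C1qa follows the mean along its whole range (r = 0.94), and C3 stays under 7 except on 5 arrays of 9 to 14 d.

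The genes whose levels were most like that of C1qa over the 46 arrays were Tf (transferrin), Folr2 (a folate receptor of macrophages), Il17ra, Dse and Laptm5, at r of 0.90 to 0.91. C1qb was closest to Alox5ap, Folr2, Mrc1 (the mannose receptor), Ctss (cathepsin S) and Fcgr2b, at r of 0.84 to 0.85. C1qc was closest to Fcgr2b, an inhibitory Fc receptor, at r of 0.91, followed by Cd14, RT1-DMa, Lyve1 and Actg1. Of these, Folr2, Laptm5, Mrc1, Ctss, Cd14 and Lyve1 stand in the macrophage list too. For leg differences over the 23 rats the 3 closest genes were Ctss, Folr2 and Csf1r for C1qa, Fxyd2, Ctss and Folr2 for C1qb, and Ctss, Mrc1 and Fxyd2 for C1qc.

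C3 was closest to Il1rn (the interleukin 1 receptor antagonist, r = 0.93), Ifi47 (an interferon-inducible GTPase, r = 0.92), Plac8, Adgre1 and Lcp1. Beside the rise of C3 at 9 to 14 d, 7 of 14 interferon response genes tested rose in loaded legs (median 0.64) and 11 of 14 in unloaded legs (median 1.36), and 0 fell, where 29% and 28.7% of all genes rose. Under the date block 1 rose in loaded and 5 in unloaded legs, where 12.9% and 15.3% of all genes rose. The median loading difference of these 14 genes at 9 to 14 d was -0.81, with 0 passing by limma. Whether they were lower in the same rats as C3 was not tested. Of 13 acute-phase and interleukin 6 family genes tested, 1 rose and 3 fell in each leg at 9 to 14 d. Of all genes, 15.2% fell there in loaded and 16.9% in unloaded legs. The 6 antigen presentation genes tested had medians of 0.18 in loaded and 0.34 in unloaded legs there, with 1 and 2 higher.

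Serping1 was closest to Shisa5 (r = 0.88), Fcer1g, C1r, Enpp3 and Ifitm3, an interferon-induced membrane protein. For leg differences it was closest to Shisa5 (r = 0.87), C1r (r = 0.86) and C1s (r = 0.85), the last being the proteases that C1 inhibitor blocks. The leg differences of C3 and Serping1 had r = 0.69 over the 23 rats, and 0.36 without the 2 rats farthest from the median of C3. When deviations from the group means were used in place of levels, 4 of the 5 closest genes stayed for C1qa, C1qb and Serping1, and 2 of 5 for C1qc and C3.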

How the data were processed

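The authors deposited log2 expression values made with RMA, per the submitters' processing notes, for 26208 probe sets on 46 arrays, and neither the RMA version nor a genome build is given in the sources used here. RMA equalises the array distributions, so a shift of most transcripts would be partly removed. Signal over background was not used, and the number of arrays limits the precision. Probe sets that on 4 or more arrays exceeded the median of that array were kept (14834), and the brightest stood for its gene (9289 genes). Loaded and unloaded legs were compared with limma 3.58.1 in R 4.3.3 over all arrays with rat as a block, and windows in loaded and unloaded legs separately, at a Benjamini-Hochberg adjusted p under 0.05 over all genes, two-sided. The code was tested on simulated data. Legs were paired by label number. Deviations from group means correlated above 0.1 between the legs of 21 of 23 rats (median r = 0.60), with exceptions in rats 17 (0.08) and 27 (-0.35). These deviations still hold differences between date codes and between durations within a window, so they do not settle the pairing. The genes named are the listed members, the other complement genes that passed or stand on a fixed list, and the 5 or 3 genes most like each member. Members and lists were chosen with earlier results of these data known. Alternatives changed the filter, scaling, weights, block, date code and rats, and those of the other complement genes were chosen after seeing the data.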

Additional observations from a re-analysis of the deposited data

Results flagged for a closer look

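Levels in each leg and leg differences of the 5 genes were checked in the windows of 4 and 6 rats, which gave 30 groups of values, and in 1 of them a value stood apart from the others. The loaded leg of rat 41 had a C1qb level of 8.27 at 5 to 8 d, while the nearest of the other 3 loaded legs had 7.25. Chance alone marks about 1 group in 20. Without rat 41 the fall of C1qb against 6 h to 4 d was larger, at -1.22 in loaded legs (limma adjusted p = 0.00413) and -1.18 in unloaded legs (limma adjusted p = 0.0194).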

How the results depend on the processing

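The number of the 5 genes called depended on several choices, in some of which fewer samples or genes entered, and the cause was not tested. For loading over all rats, 2 genes were called; 1 was called with no filter, with the stricter filter, with arrays centred on their medians and with rat as a random block, 0 with no replicate block or in date code 3 alone, and 0 to 2 when 1 rat was left out. For loading at 9 to 14 d, 1 gene was called; 0 were called with no filter, the stricter filter (which drops C3), trend and robust moderation, no replicate block, a random block, that window's arrays alone, without rats 17 and 27, or in date code 3 alone, and 0 to 1 when 1 rat was left out. For 5 to 8 d against 6 h to 4 d, 2 genes were called in each leg; array quality weights gave 4, date code 3 alone 0 and date code as a block 0 in each leg, and leaving out 1 rat gave 0 to 3. Over all 9289 genes, 3620 were called in loaded and 3337 in unloaded legs there; array quality weights called 5088 and 5375, date code 3 alone 0 and 16, and date code as a block 850 and 757. Within date code 3 the unloaded legs turned to 0.0643 for C1qb and 0.0321 for C1qc. For 9 to 14 d against 6 h to 4 d, 1 gene was called in each leg; the stricter filter and date code 3 alone gave 0 in each, date code as a block gave 3 in unloaded legs, and leaving out 1 rat gave 1 to 2 in unloaded legs. For 9 to 14 d against 5 to 8 d in unloaded legs, 0 genes were called by limma; array quality weights gave 5 (and 2214 of all genes, against 21 without), and leaving out 1 rat gave 0 to 1. Of the 26 other complement genes, at 5 to 8 d 3 were called higher and 5 lower in loaded legs, and 4 and 5 in unloaded legs; date code as a block, an alternative chosen after seeing the data, gave 1 and 0 in loaded and 2 and 0 in unloaded legs. At 9 to 14 d it gave 3 higher and 1 lower in loaded legs, against 9 and 3, and 9 higher and 0 lower in unloaded legs, against 12 and 4. Cyclic loess scaling moved the calls over all genes at 5 to 8 d to 18.8% higher and 17.3% lower in loaded and 17.6% and 17.5% in unloaded legs, and at 9 to 14 d to 22.5% and 20.9% in loaded and 23.2% and 22.6% in unloaded legs. C1qa, C1qb and C1qc passed for loading under none of these alternatives.

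The groups share no replicate numbers in the labels, so the rat block rests on the inferred pairs of legs.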
